A study of Mus musculus with 12 samples.

Results

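The genes described here are 10 genes of the MHC class I pathway of mouse cells: B2m, H2-K1, H2-D1, H2-T23, H2-M3, Tap1, Tap2, Tapbp, Erap1 and Nlrc5. They were taken by gene symbol from a table of 27473 features, where all 10 symbols were found and none was repeated. RNA-seq was performed on 3T3-L1 cells, a mouse fibroblast line that becomes fat-storing adipocytes in culture, in 12 libraries. Preadipocytes were differentiated with dexamethasone, IBMX and insulin and were transduced with lentivirus as mature adipocytes on day 8. They were harvested 4 days after transduction. The GFP group (3 libraries, labelled as control) and the Dnmt3a group (3 libraries) carried the pCDH expression vector with GFP or with Dnmt3a, a DNA methyltransferase. The shScr group (3 libraries) carried a scrambled hairpin and the shDnmt3a group (3 libraries) a hairpin against Dnmt3a; the sources used here do not give which hairpin. All 4 groups therefore had met a lentivirus. Whether the 3 libraries of each group stem from different cultures is not stated, and the p-values given here cover the spread among the libraries alone, which may be technical.

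MHC class I molecules show samples of a cell's own proteins, as short peptides at the cell surface, to cytotoxic T cells. A heavy chain, encoded in mice by H2 genes, pairs with the light chain B2m. Peptides are cut in the cytosol by the proteasome, pumped into the endoplasmic reticulum by the transporter formed by TAP1 and TAP2, trimmed there by the aminopeptidase ERAP1, and fitted to the heavy chain with the help of tapasin, the product of Tapbp. Nearly all nucleated cells make class I, and interferons raise it. NLRC5 is a transactivator that drives class I genes through a shared promoter module, on which the factors RFX, CREB/ATF and NF-Y sit.

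Total counts per library were 29084732 to 47341091. Values are given as CPM, the deposited counts scaled by TMM over the 12 libraries to a common library total. Dnmt3a, the targeted gene, followed the labels, at 92.8, 90.2 and 96.7 CPM in GFP and at 2734, 2789 and 2742 CPM in Dnmt3a libraries. It stood at 81.3, 86.5 and 78.7 CPM in shScr and at 40.8, 39.3 and 39.4 CPM in shDnmt3a libraries. The shScr libraries were the highest in the genes described here: each of the 10 genes was higher in every shScr library than in any of the other 9 libraries. The results of the knock-down for the 10 genes are therefore given both against shScr and against GFP. Among all features tested, 26.3% were higher in shScr than in GFP without overlap, and 26.8% were lower in shDnmt3a than in shScr without overlap. The share of features above all 9 other libraries was not counted. The 10 genes took 0.586 to 0.606% of all counts in shScr libraries and 0.333 to 0.363% in the libraries of the other groups. Adipocyte markers summed to between 10600 and 15100 CPM in every library. Leukocyte markers summed to at most 16.9 CPM over 11 genes, of which Cd68 (96 to 318 counts per library) and Cd14 (152 to 294 counts) were the most abundant. Emr1 and Ncr1 were at 0 counts in all libraries, Cd3e at no more than 1 count and Ptprc, the pan-leukocyte marker, at no more than 9.

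Of the 10 genes, 7 lie on mouse chromosome 17 within 3359 kb (chr17:34052844-37411429, mm9), in the H2 complex. In GENCODE vM1, whose NCBIM37 assembly is mm9, H2-K1 spans chr17:34132962-34137278, Tap1 chr17:34324498-34334170 and Tap2 chr17:34340472-34353266. H2-D1 spans chr17:35399675-35404444. The others on this chromosome are Tapbp, H2-T23 and H2-M3. B2m lies at chr2:121973422-121978819, Erap1 at chr13:74777320-74829983 and Nlrc5 at chr8:96996663-97051172. Nlrc5 is listed there as a lincRNA, although it is known to encode a protein.

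Since these genes moved together in the shScr libraries, their promoters are shown. RefSeq promoter windows of 250 bases before to 50 bases after the start (GRCm38.p6) were found for 8 of the 10 genes and matched NCBIM37 exactly at 1 place each; Tap2 and Nlrc5 had no entry. H2-K1 had a pair of entries, and the one with the start further downstream is used. These are letters of the reference genome, not of the 3T3-L1 genome, and H2 genes vary between mouse strains. The 190 bases before the B2m start (chr2:121973233-121973422, plus strand) and before the H2-K1 start (chr17:34137279-34137468, minus strand) are shown because B2m and the classical heavy chains were the most abundant of the 10. Capitals mark a kB motif (GGGA and CC with 4 bases between them), an IRF core (AA and GAAA with 2 bases between them, the core of the site that interferon regulatory factors bind) and the pair TGACG and ATTGG separated by 20 bases, searched on both strands.
B2m: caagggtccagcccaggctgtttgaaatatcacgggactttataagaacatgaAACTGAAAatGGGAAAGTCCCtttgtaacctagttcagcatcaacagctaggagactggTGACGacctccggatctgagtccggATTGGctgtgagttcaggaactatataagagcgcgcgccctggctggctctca
H2-K1: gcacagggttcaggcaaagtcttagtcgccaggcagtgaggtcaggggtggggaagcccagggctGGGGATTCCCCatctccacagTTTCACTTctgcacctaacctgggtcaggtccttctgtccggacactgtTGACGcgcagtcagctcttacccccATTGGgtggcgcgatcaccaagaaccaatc

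The kB motif and the IRF core stood next to each other in B2m, H2-K1, H2-D1 and H2-M3. In B2m the IRF core came before the kB motif, and in the heavy chains it came after it, with the IRF core on the minus strand. The H2-D1 stretch lies within the untranslated part of exon 1 as GENCODE vM1 draws it, upstream of the RefSeq start. Capitals again mark both motifs, and the stretches start 139, 125, 171 and 126 bases before the RefSeq start in the order given.
B2m: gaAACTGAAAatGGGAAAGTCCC
H2-K1: GGGGATTCCCCatctccacagTTTCACTT
H2-D1: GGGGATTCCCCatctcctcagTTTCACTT
H2-M3: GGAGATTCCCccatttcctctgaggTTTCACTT

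The same 4 promoters held the pair TGACG (the core of the X2 box, a CREB/ATF site) and ATTGG (the Y box, an NF-Y site) at the same spacing of 20 bases. The H2-D1 stretch again lies within annotated untranslated sequence of GENCODE vM1, upstream of the RefSeq start. The spacing was chosen after these promoters were seen. It was present in 31 of 32851 promoter windows (0.0944%), which belong to 27 of 27025 gene symbols, these 4 among them. Capitals mark TGACG and ATTGG.
B2m: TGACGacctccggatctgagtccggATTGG
H2-K1: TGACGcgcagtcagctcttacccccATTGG
H2-D1: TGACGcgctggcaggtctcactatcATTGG
H2-M3: TGACGcttctccaattcccattctaATTGG

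H2-T23 and Erap1 lacked that pair in this window but held GAAA and GAAA with 2 bases between them, a fuller form of the IRF core, on the minus strand, as did B2m on the plus strand. This form was present in 3.44% of all windows, against 23.9% for the IRF core and 20.7% for the kB motif. Of the 8 genes with a window, 6 held the IRF core and 4 the kB motif, as did 26.7% and 22.9% of all gene symbols. The H2-T23 stretch lies within annotated untranslated sequence of GENCODE vM1, upstream of the RefSeq start. The Erap1 site runs across the start itself, from 4 bases before it. Capitals mark the IRF core.
H2-T23: atcctactgcTTTCTCTTtcataaag
Erap1: gccggtccaccttcacTTTCACTTtc

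TGACG alone was present in 20.8% of windows and ATTGG alone in 37.4%. Tap1 held both, with ATTGG on the minus strand 222 bases before the start and TGACG 86 bases before it, not in the paired spacing, and held no kB motif or IRF core. Its window overlapped that of Psmb9, an immunoproteasome gene transcribed the other way, by 275 bases. Tapbp held only ATTGG. These are matches of letters: no binding or methylation at these sites was measured here.

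Levels between genes are compared per kb of the deposited feature length, and their order depends on it. The B2m feature has 2414 bases, whereas the longest annotated protein-coding transcript of B2m has 860. For H2-D1 these lengths are 1989 and 2102, for Tapbp 6105 and 2894, and for Tap1 5399 and 2953. The place of B2m relative to H2-D1 thus holds for the deposited lengths only. On that scale H2-D1, a classical heavy chain, had the highest level in all 4 groups. In GFP it stood at 708 ± 5.55 CPM per kb (SD, n = 3) and in shScr at 1374 ± 35.3. B2m came next at 369 ± 42.7 in GFP, then H2-K1, the other classical heavy chain, at 236 ± 1.70, and Tapbp at 50.9 ± 0.741. These 4 ranked 27, 80, 141 and 1006 among the 27473 features by level per kb over all libraries. The other genes lay far below them: in GFP, Tap2 was at 18.8, H2-M3 at 14.7, Erap1 at 13.9, Tap1 at 8.01, H2-T23 at 5.50 and Nlrc5 at 4.97 CPM per kb. All neighbours in this order were separated in GFP, with no overlap of their libraries. In other groups a few neighbours overlapped: Erap1 with H2-M3 and Tap1 with H2-T23 in Dnmt3a, Tap1 with H2-T23 in shScr, and Tap2 with H2-M3 in shDnmt3a. The only change of place was that Erap1 stood above H2-M3 in Dnmt3a, where the libraries of these genes overlapped.

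**Figure D1:**
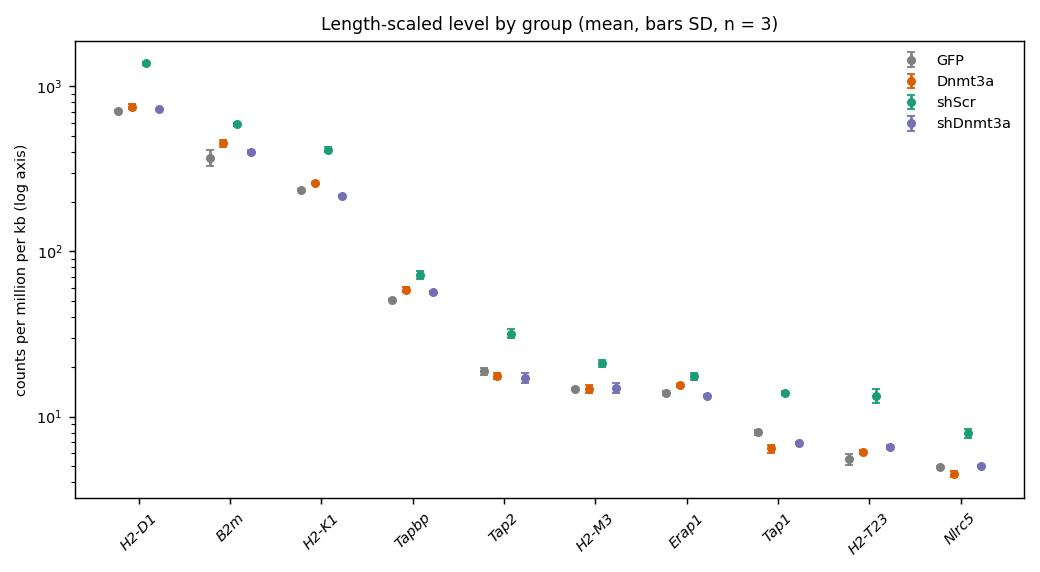
Level of each gene in CPM per kb of feature length on a log axis, by group; points are means and bars the SD of 3 libraries. H2-D1, B2m and H2-K1 lie between 217 and 1374 CPM per kb, Tapbp between 50.9 and 72.3, and the other 6 genes at no more than 31.8.

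The knock-down was read by comparing shDnmt3a with shScr, its own control. All 10 genes were lower in shDnmt3a than in shScr, and in all 10 the libraries did not overlap. Among all 14115 features tested, 22.5% were called lower at an adjusted p under 0.05 (quasi-likelihood test of edgeR, Benjamini-Hochberg adjusted), 23.3% were called higher and 26.8% were lower without overlap. The median log2 fold change of the 10 genes was −0.771, with a range from −1.01 to −0.35, beside −0.000268 over all features. The heavy chains and the TAP transporter were about 46 to 50.4% lower, apart from H2-M3, and B2m, tapasin, Erap1 and H2-M3 21.7 to 31.3% lower, with Nlrc5 between them at 36.4%. In bulk RNA, fewer cells that express a gene and less RNA per cell cannot be told apart. Preadipocyte and fibroblast markers summed to 8900 to 9630 CPM in shScr and 13300 to 13500 CPM in shDnmt3a, with 4 of 10 markers lower and 4 higher. Most of that sum was the collagen gene Col3a1, at 7607 ± 281 CPM in shScr and 11570 ± 66.8 CPM in shDnmt3a (SD, n = 3), while Ly6a, Pdgfrb and Thy1 were lower; the part of these markers in the result was not tested.

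**Figure D2:**
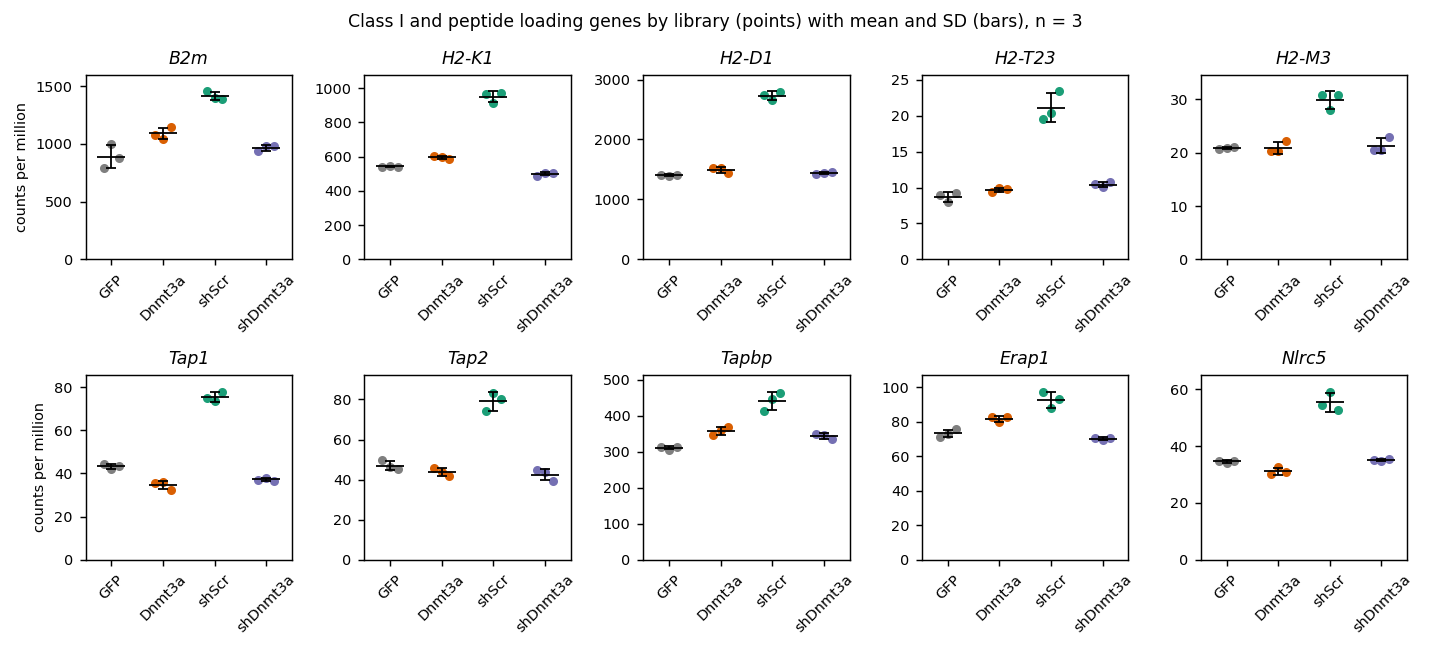
CPM of the 10 genes in every library, by group, on linear axes that start at 0; points are libraries, long bars means and whiskers the SD (n = 3). In every panel the 3 shScr libraries lie above the other 9; the lowest shScr library exceeds the highest of the others from 1.06 times (Erap1) to 1.82 times (H2-T23).

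Among the heavy chains, H2-K1 and H2-D1 encode the classical molecules that present peptides to T cells. H2-D1 stood at 2738, 2660 and 2800 CPM in shScr and at 1417, 1439 and 1455 CPM in shDnmt3a. H2-K1 stood at 966, 916 and 970 CPM in shScr and at 490, 506 and 502 CPM in shDnmt3a. In both genes the groups lay far apart, with little spread within each. The log2 fold change was −0.92 for both (standard error, SE, 0.030 and 0.033, adjusted p = 7.59e-15 and 3.27e-14).

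H2-T23 encodes Qa-1, a nonclassical chain that presents leader peptides of other class I chains to receptors of NK cells. It stood at 19.5, 20.4 and 23.4 CPM in shScr and at 10.43, 10.10 and 10.71 CPM in shDnmt3a, with a log2 change of −1.01 (SE 0.076; adjusted p = 1.86e-09). H2-M3 encodes a nonclassical chain that presents N-formylated peptides, such as those of bacteria and mitochondria. It stood at 30.9, 28.0 and 30.7 CPM in shScr and at 20.4, 20.6 and 23.02 CPM in shDnmt3a, with a log2 change of −0.48 (SE 0.063; adjusted p = 4.00e-06). The groups were apart for both genes, and H2-M3 fell less than the other chains.

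Class I paralogs are alike in sequence, so reads may have been shared among them in counting. Of the stretches of 50 bases in the longest annotated transcript, 14.3% of H2-D1, 8.87% of H2-K1 and 15.7% of H2-T23 also occurred in protein-coding transcripts of other genes, but only 0.576% of H2-M3. When counts of all 29 class I heavy chain features were summed, so that the split between them no longer mattered, the log2 fold change was −0.93 (SE 0.030, adjusted p = 5.74e-15). H2-D1 and H2-K1 held 88.1 to 90.1% of that sum in every library.

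B2m, the light chain, fell less than the classical heavy chains. It stood at 1456, 1398 and 1390 CPM in shScr and at 939, 978 and 984 CPM in shDnmt3a, with a log2 change of −0.54 (SE 0.032; adjusted p = 6.40e-11). No 50-base stretch of B2m occurred in another gene's transcripts.

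The subunits of the peptide transporter fell by as much as the heavy chains. Tap1 stood at 74.8, 73.6 and 77.9 CPM in shScr and at 37.1, 37.9 and 36.7 CPM in shDnmt3a, with a log2 change of −1.01 (SE 0.044; adjusted p = 4.75e-13). Tap2 stood at 74.0, 83.4 and 80.1 CPM in shScr and at 44.8, 43.6 and 39.2 CPM in shDnmt3a, with a log2 change of −0.89 (SE 0.054; adjusted p = 7.84e-11). Neither gene's groups came near each other. Whether strand was used in counting is not given; of the 50-base stretches of Tap1, 5.61% also occurred in Psmb9 on either strand, and of those of Tap2, 9.90% occurred in the annotated gene Gm15821.

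Tapasin and the trimming enzyme fell least. Tapbp stood at 414, 447 and 464 CPM in shScr and at 350, 347 and 335 CPM in shDnmt3a, with a log2 change of −0.35 (SE 0.040; adjusted p = 4.93e-07). Erap1 stood at 97.4, 88.0 and 93.1 CPM in shScr and at 70.6, 69.2 and 70.9 CPM in shDnmt3a, with a log2 change of −0.39 (SE 0.042; adjusted p = 2.24e-07). Nlrc5, the transactivator, lay between the transporter and tapasin. It stood at 54.4, 59.2 and 52.7 CPM in shScr and at 35.1, 34.7 and 35.5 CPM in shDnmt3a, with a log2 change of −0.65 (SE 0.051; adjusted p = 3.27e-09).

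The shScr and shDnmt3a groups were next set against GFP, the control of the other vector, in 1 fit of all 12 libraries. This sets both hairpin groups beside a further control. All 10 genes were higher in shScr than in GFP without overlap of the libraries, where 23.7% of 14491 features tested were called higher, 22.8% lower, and 26.3% were higher without overlap. Their median log2 difference was 0.716 (range 0.34 to 1.27), beside −0.00599 over all features. Against GFP, shDnmt3a libraries had 3 genes lower, 2 higher and 5 that did not pass the test, where 22.8% of features were called lower and 23.6% higher. The median was 0.0245 (range −0.22 to 0.26), beside −0.00581 over all features. These comparisons share their GFP or shDnmt3a libraries with others described here, and an effect of the hairpin or vector and a difference in batch between GFP and hairpin libraries cannot be told apart.

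H2-D1 stood at 1413, 1395 and 1416 CPM in GFP, just below the lowest shDnmt3a library, and its log2 difference was 0.96 for shScr against GFP (SE 0.032, adjusted p = 2.47e-20) and 0.03 for shDnmt3a against GFP (SE 0.032, adjusted p = 0.473). H2-T23 had the largest difference of the 10 genes between shScr and GFP. It stood at 8.90, 7.98 and 9.28 CPM in GFP, with a log2 difference of 1.27 for shScr (SE 0.077, adjusted p = 3.00e-14) and 0.26 for shDnmt3a (SE 0.082, adjusted p = 0.0113). Erap1 had the smallest, 0.34 for shScr (SE 0.041, adjusted p = 5.19e-08), with GFP libraries at 71.2, 72.9 and 75.7 CPM.

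The 3 genes lower in shDnmt3a than in GFP were H2-K1 (log2 difference −0.12, adjusted p = 0.00342), Tap1 (−0.22, adjusted p = 4.35e-04) and Tap2 (−0.14, adjusted p = 0.0313). Besides H2-T23, Tapbp was higher (0.15, adjusted p = 0.00276). All 5 of these differences were under 20%. The call for Tap2 was lost without GFP replicate 1 (−0.10) and without shDnmt3a replicate 3 (−0.09), and that for H2-T23 without GFP replicate 2 (0.20). Against GFP, B2m, H2-D1, H2-M3, Erap1 and Nlrc5 had log2 differences of 0.12, 0.03, 0.03, −0.06 and 0.02 in shDnmt3a, with adjusted p from 0.0557 to 0.784. For B2m, which had the adjusted p of 0.0557, leaving out 1 library gave 0.04 to 0.21, with a call without GFP replicate 2 (0.21) and without shDnmt3a replicate 1 (0.14). It was also called, at 0.12, with RLE size factors, total counts or no filter.

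**Figure D3:**
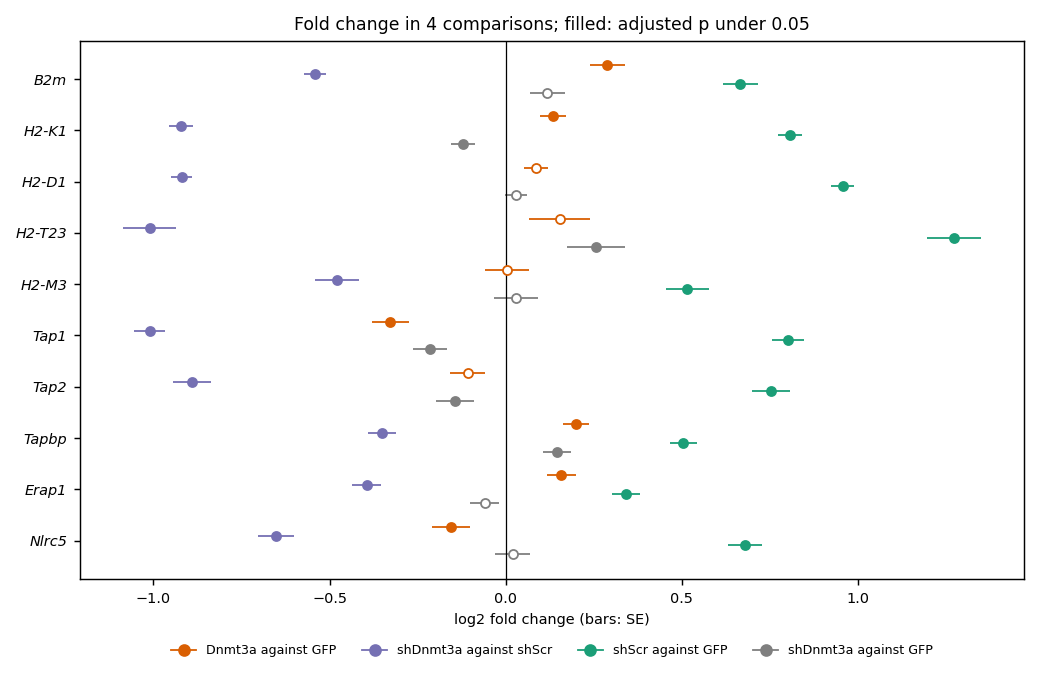
Log2 fold change of each gene in 4 comparisons, in edgeR; bars are standard errors and filled points passed an adjusted p of 0.05. Points of shDnmt3a against shScr lie between −1.01 and −0.35 and those of shScr against GFP between 0.34 and 1.27, whereas those of shDnmt3a against GFP lie between −0.22 and 0.26 and those of Dnmt3a against GFP between −0.33 and 0.29.

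Overexpression was read by comparing Dnmt3a with GFP libraries. The changes were small and went both ways: 4 genes were higher (B2m, H2-K1, Tapbp and Erap1), 2 were lower (Tap1 and Nlrc5) and 4 did not pass the test. Among all 14168 features tested, 14.3% were called higher and 12.9% lower. The median log2 fold change of the 10 genes was 0.11 (range −0.33 to 0.29), beside −0.00663 over all features. Adipocyte markers summed to 11900 to 12600 CPM in GFP and 14800 to 15100 CPM in Dnmt3a libraries, with 9 of 10 higher, and their part in the result was not tested.

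B2m, at 795, 1000 and 879 CPM in GFP and at 1082, 1045 and 1145 CPM in Dnmt3a, had the largest increase, with a log2 change of 0.29 (SE 0.049; adjusted p = 2.08e-05). The GFP libraries were more scattered for this gene than those of any other group. Tapbp, at 313, 306 and 314 CPM in GFP and at 345, 360 and 368 CPM in Dnmt3a, had a log2 change of 0.20 (SE 0.038; adjusted p = 1.08e-04). Tap1 went the other way, from 44.3, 41.8 and 43.6 CPM in GFP to 35.5, 35.9 and 32.4 CPM in Dnmt3a, with a log2 change of −0.33 (SE 0.052; adjusted p = 7.38e-06). The libraries did not overlap in any of these 3 genes; among all features, 20.4% were higher and 19.2% lower without overlap.

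H2-K1 and Erap1 had log2 fold changes of 0.13 (SE 0.036, adjusted p = 0.00417) and 0.16 (SE 0.041, adjusted p = 0.00375). Nlrc5 had −0.16 (SE 0.053, adjusted p = 0.0258), and its call was lost without GFP replicate 1, GFP replicate 3, Dnmt3a replicate 1 or Dnmt3a replicate 3 (−0.15, −0.15, −0.13 and −0.15). H2-D1 (0.09, adjusted p = 0.0625), H2-T23 (0.15, adjusted p = 0.197), H2-M3 (0.00, adjusted p = 0.979) and Tap2 (−0.11, adjusted p = 0.111) did not pass. The summed heavy chains had a log2 change of 0.10 (SE 0.033; adjusted p = 0.0254).

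The calls on overexpression depended in part on scaling. With scaling by total counts, which moved the median of all features to −0.0728, 2 genes were higher (B2m and Tapbp) and 3 lower (Tap1, Nlrc5 and Tap2, at −0.17). H2-K1 (0.07), Erap1 (0.09) and the summed heavy chains (0.03) were then not called. The increase of B2m and Tapbp and the decrease of Tap1 passed the test under every scaling and with each library left out.

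The effects of the 2 manipulations were tested against each other in the fit of all 12 libraries, as the knock-down effect minus the overexpression effect. The difference was below 0 and called lower for all 10 genes, beside 20.4% of 14491 features called lower in this contrast. Both controls enter it, and shScr lay above GFP in all 10 genes (log2 difference 0.34 to 1.27). Its sign therefore cannot tell opposed effects of the 2 manipulations from the height of shScr. The median was −0.742 (range −1.17 to −0.49), beside 0.015 over all features. It was −1.01 for H2-D1 (SE 0.045, adjusted p = 5.05e-17) and −0.84 for B2m (SE 0.071, adjusted p = 9.26e-11), which rose on overexpression. For Tap1 and Nlrc5, which were lower in both comparisons, it was −0.69 (SE 0.067, adjusted p = 1.43e-09) and −0.51 (SE 0.071, adjusted p = 1.21e-06).

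The parts of the pathway did not move in equal measure. In levels per kb, the ratio of the classical heavy chains to B2m was 2.98 to 3.18 in the 3 shScr libraries and 2.33 to 2.38 in the 3 shDnmt3a libraries. Its size depends on the deposited feature lengths, so it does not show an excess of heavy chains over B2m. A different length for B2m would scale it alike in every library. The ratio was 2.27 to 2.87 in GFP and 2.06 to 2.38 in Dnmt3a libraries, so that it overlapped between these groups but lay highest in shScr. H2-D1 exceeded H2-K1 3.28 to 3.36 times in shScr and 3.29 to 3.36 times in shDnmt3a, against 2.95 to 3.03 times in GFP and 2.84 to 2.96 times in Dnmt3a. This balance therefore separated the hairpin libraries from the pCDH libraries and not shDnmt3a from shScr.

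The ratio of Tap1 to Tapbp, both needed for peptide loading, was 0.186 to 0.204 in shScr and 0.120 to 0.124 in shDnmt3a libraries. It was 0.155 to 0.160 in GFP and 0.0996 to 0.116 in Dnmt3a libraries. Tap1 was thus lower relative to Tapbp in the manipulated group of each pair, without overlap with its control. The ratio of Tap1 to Tap2 was 0.407 to 0.466 in shScr and 0.383 to 0.432 in shDnmt3a, which overlapped, and 0.412 to 0.446 in GFP and 0.357 to 0.380 in Dnmt3a, which did not. These ratios were described from the libraries and not tested.

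**Figure D4:**
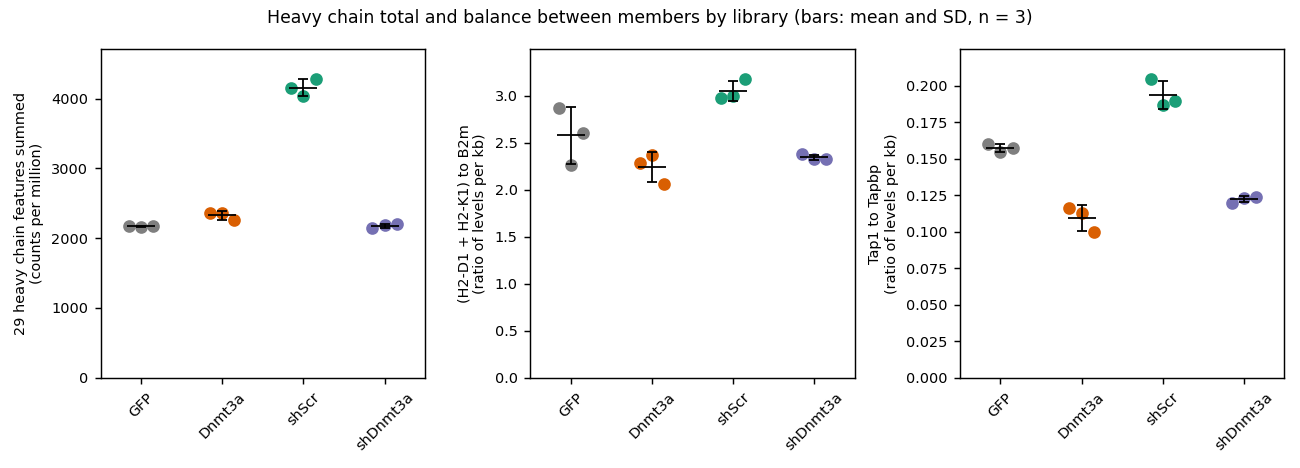
Summed CPM of 29 class I heavy chain features, the ratio of H2-D1 plus H2-K1 to B2m and the ratio of Tap1 to Tapbp (both in levels per kb) in every library, with mean and SD (n = 3) by group and axes from 0. The heavy chain sum is 4043 to 4277 CPM in shScr and 2145 to 2362 CPM in the other 9 libraries; the Tap1 to Tapbp ratio is lowest in Dnmt3a.

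The rest of the pathway was read from lists of known genes. Of 14 other class I heavy chains tested on knock-down, 11 were lower, none was higher and 3 did not pass. Over all features 22.5% were lower and 23.3% higher. The median log2 fold change of these chains was −0.916. Examples are H2-T9 (−1.30), H2-T10 (−1.08) and H2-Q1 (−1.01), paralogs whose reads may be shared. Against GFP, 12 of 15 were higher in shScr, beside 23.7% of all features. In shDnmt3a 4 were higher and 1 was lower than in GFP, beside 23.6% and 22.8% of all features. On overexpression 3 of 15 were higher (H2-Q1, H2-Q2 and H2-Bl, at 0.19 to 0.29) and 1 was lower, H2-M2, at −1.43, beside 14.3% higher and 12.9% lower over all features. H2-M2 had only 1 to 24 counts per library, with an SE of 0.43.

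The immunoproteasome, a form of the proteasome whose interferon-induced subunits favour cuts suited to class I, followed the same pattern on knock-down. All 4 measured genes were lower, beside 22.5% of all features: Psmb8 (−1.42), Psmb9 (−1.18), Psmb10 (−0.75) and Psme2 (−0.46), a subunit of the proteasome activator. All 4 were higher in shScr than in GFP (0.50 to 1.51), beside 23.7% of all features. None of the 4 passed the test between shDnmt3a and GFP (−0.04 to 0.08). On overexpression only Psme2 passed, at 0.17. The catalytic subunits that these replace, Psmb5, Psmb6 and Psmb7, were also lower on knock-down, at −0.52, −0.16 and −0.15. Of these only Psmb5 was higher in shScr than in GFP, at 0.14. Against GFP, 2 of these 3 were lower in shDnmt3a (range of the 3 −0.38 to −0.06), beside 22.8% of all features. Psmb5 stood at 48.1 ± 0.477 CPM in shDnmt3a, 62.7 ± 2.83 in GFP and 69.2 ± 4.55 in shScr (SD, n = 3). On overexpression Psmb6 (0.17) and Psmb7 (0.20) were higher and Psmb5 did not pass, beside 14.3% higher over all features.

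Of 12 general chaperones and peptidases of the loading route tested on knock-down, 3 were lower, 4 higher and 5 did not pass, with a median of −0.0201, beside 22.5% lower and 23.3% higher over all features. Npepps (0.82), a cytosolic aminopeptidase, Lnpep (0.40), an endosomal trimming enzyme, Calr (0.27), the chaperone calreticulin, and Tpp2 (0.26), a cytosolic peptidase, were higher in shDnmt3a than in shScr. These 4 were also lower in shScr than in GFP (−0.44, −0.40, −0.19 and −0.16), and against GFP shDnmt3a had Npepps at 0.37, Calr at 0.08 and Tpp2 at 0.09, all called higher, and Lnpep at 0.00, which did not pass. Canx (−0.17), the chaperone calnexin, Tapbpl (−0.18), a tapasin relative that edits peptides, and Bcap31 (−0.09) were lower than in shScr, and against GFP only Canx of these was called, at −0.25. On overexpression Bcap31 (0.35), Tapbpl (0.19) and Lnpep (0.13) rose and none fell, beside 14.3% higher and 12.9% lower over all features.

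**Figure D5:**
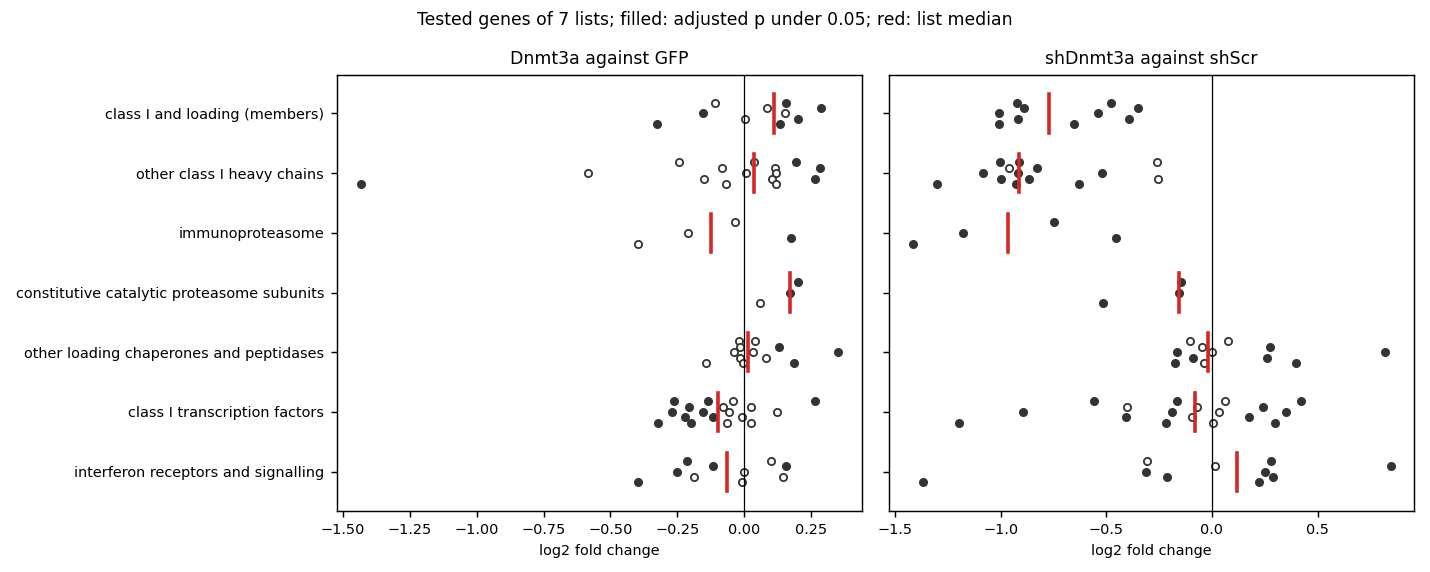
Log2 fold change of each tested gene in 7 lists on overexpression (left) and knock-down (right), in edgeR; filled points passed an adjusted p of 0.05 and red lines are list medians. On knock-down the 10 class I and loading genes, the other heavy chains and the immunoproteasome have medians of −0.771, −0.916 and −0.966, whereas the other 4 lists have medians between −0.156 and 0.118.

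The factors that act on class I promoters moved in both directions. Of 18 tested on knock-down, 7 were lower, 5 higher and 6 did not pass, beside 22.5% lower and 23.3% higher over all features. Among those of the interferon route, Irf7 (−1.20), Stat2 (−0.90), Irf9 (−0.41) and Irf1 (−0.16) were lower. Among those that sit on the X and Y boxes, Rfx5 (0.35), Nfya (0.24) and Atf1 (0.42) were higher and Creb1 (−0.19) was lower. Rela, a subunit of NF-kB, which binds kB motifs, was also higher (0.30). In shScr against GFP, Irf7 (1.21), Stat2 (1.03) and Irf9 (0.60) were higher, whereas Rela (−0.52), Atf1 (−0.67) and Nfya (−0.34) were lower. In shDnmt3a against GFP, Irf9 (0.19), Stat2 (0.13) and Rfx5 (0.48) were higher, Rela (−0.23), Atf1 (−0.25) and Creb1 (−0.26) were lower, and Irf7 (0.00), Irf1 (0.06) and Nfya (−0.10) did not pass. On overexpression 9 were lower and 1, Nfyc (0.27), was higher, beside 12.9% lower and 14.3% higher over all features. Stat2 (−0.32), Irf7 (−0.27) and Nfya (−0.26) were among the 9.

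Upstream of these factors, the 11 interferon genes found in the table had at most 7 counts in any library and none passed the filter on low counts. Ifnb1, which encodes interferon beta, had at most 4 counts. Its mean was 0.0712 CPM in shScr, 0.0322 in Dnmt3a, 0.00925 in shDnmt3a and 0 in GFP libraries, from too few counts to compare groups. Ifng and Ifna1 had 0 in all 12 libraries. A count of 0 allows up to 3 counts per library, for counting error only. Of 10 receptors and signalling genes, 3 were lower on knock-down and 5 higher, beside the shares of 22.5% and 23.3% over all features. Usp18, an interferon-induced brake on the receptor, was lower (−1.37), as was Ifnar1 (−0.31), a chain of the type I interferon receptor. Socs3, an inhibitor of cytokine signalling, was higher (0.85). In shScr against GFP, Usp18 (1.48) and Ifnar1 (0.14) were higher and Socs3 lower (−0.89). In shDnmt3a against GFP, Usp18 (0.10) and Socs3 (−0.05) did not pass, and Ifnar1 was lower (−0.18). On overexpression 4 of the 10 were lower, beside 12.9% of all features, and 1 was higher, beside 14.3%. Usp18 (−0.40) and Jak2 (−0.25) were among the 4, and Ifnar2 (0.16) was the higher one.

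Outside all lists and among features with a mean of at least 50 counts, the 8 features whose log2 CPM most resembled the mean pattern of the 10 genes over the 12 libraries had Pearson correlations from 0.981 to 0.991, given as a description because the libraries fall into groups. They were I830012O16Rik, Ifit3, 3110062M04Rik, Mpdu1, Vps33a, Renbp, Lrpprc and Ifi27l1. Ifit3 is an interferon-induced RNA-binding protein, at 287 ± 7.76 CPM in shScr and 77.2 ± 1.83 CPM in GFP (SD, n = 3). Lrpprc is a mitochondrial RNA-binding protein, at 320 ± 4.07 CPM in shScr and 243 ± 5.88 CPM in GFP. The correlation of the 10 genes themselves with that mean, of which each is a part, ran from 0.881 for Erap1 to 0.997 for H2-D1.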

How the data were processed

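RNA-seq counts of 12 libraries were analysed; groups came from the sample labels. Per the labels and the paper's methods, the authors depleted ribosomal RNA, aligned reads to mm9 with TopHat2 (2.0.14) and counted them per transcript with featureCounts (1.4.6); Picard (2.2.4) and SAMtools (0.1.19) are named in the submitters' processing notes. The deposited values are whole-number counts, not normalized, beside a feature length; 7094 of 27473 features had no count. Strand use and the treatment of reads with several matches are not stated there. The paper's methods give a shorter contact with the virus than the labels.

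The quasi-likelihood test of edgeR (version 4.0.16, in R 4.3.3) was run on TMM-scaled counts after its default filter (minimum count 10), with Benjamini-Hochberg adjustment over all features tested and calls at an adjusted p under 0.05. Dnmt3a against GFP and shDnmt3a against shScr were fitted on their 6 libraries, the other contrasts on all 12. In 1 added row, counts of 29 heavy chain features were summed. The common biological coefficient of variation was 3.98 to 4.03%. On simulated counts with 200 changed genes, log2 changes of 0.5 were recovered for 75% on overexpression (4.02% false calls), 74% on knock-down (3.57%), 71% in shScr against GFP (7.65%), 67% in shDnmt3a against GFP (3.80%) and 65% in the difference of effects (4.14%). Replicates differed by more than sampling noise (chi-square per degree of freedom 2.52 to 10.7). All 10 genes are named; from each list, the genes with the 4 smallest p in either comparison, defining genes at 0 and genes against their list's direction could be named, and Irf1, Creb1 and Canx were named after their values were seen. Promoter motifs were searched with Python 3.11.15, and figures drawn with matplotlib 3.10.9. Alternatives were other scalings, filters and thresholds, DESeq2 (1.42.0), a replicate block and leaving out each library. The genes and lists were chosen with earlier results of these data known.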

Additional observations from a re-analysis of the deposited data

How the results depend on the processing

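Of 1040 alternative values, 998 were taken as kept. A log2 fold change was kept where its direction and its side of the threshold held. A count of genes was also taken as kept where it changed little. An example is 3 genes lower on overexpression with total counts, beside 2 in the main fit. Every value was kept for shDnmt3a against shScr, shScr against GFP and the difference between the effects of knock-down and overexpression. On overexpression, scaling by total counts left 2 genes higher and a log2 fold change of 0.03 for the summed heavy chains (adjusted p = 0.512), and at an adjusted p under 0.01 only 1 gene was lower and the sum (0.10) was no longer called. Leaving out 1 library at a time gave 1 to 2 genes lower on overexpression and 0.09 to 0.12 for the sum, which was not called without GFP replicate 1, GFP replicate 3, Dnmt3a replicate 1 or Dnmt3a replicate 2. H2-M3, at 0.00 on overexpression, changed sign with total counts (−0.06), without GFP replicate 1 (−0.01), without Dnmt3a replicate 3 (−0.04; range up to 0.03 with 1 library left out), and at 0.00 with a filter of 1 CPM in 3 libraries and with the replicate block. In shDnmt3a against GFP, 1 gene was higher at an adjusted p under 0.01; the summed heavy chains ranged from 0.00 to 0.02 with 1 library left out, changing sign without shDnmt3a replicate 3, as did H2-M3 (−0.03, with a range up to 0.06). H2-D1 was called on overexpression with DESeq2 (adjusted p = 0.0414), without a filter (0.0396), in 1 fit of all libraries (0.0405) and without Dnmt3a replicate 3 (0.0243). The cause of these changes was not tested.

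The replicate numbers did not pair the libraries: deviations of same-numbered libraries correlated from −0.251 to 0.157 over 18 pairs, of which 1 was over 0.1. With the replicate block the knock-down still had 10 genes lower and overexpression 2 lower and 4 higher. Depth limits the interferon genes, which had too few counts to be tested.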

Other observations

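In the class II route, which shows peptides taken up from outside the cell, the chains H2-Aa, H2-Ab1 and H2-Eb1 had at most 5 counts in any library, and only 5 of 13 genes could be tested. Ifi30, a lysosomal thiol reductase induced by interferon, was lower in shDnmt3a than in shScr (log2 fold change −0.51, adjusted p = 2.40e-08, edgeR's quasi-likelihood test) but higher than in GFP (0.95, adjusted p = 2.93e-15), as shScr lay above GFP by 1.47. Its direction on knock-down therefore turned with the control. Cd74, the invariant chain of class II, with 60 to 259 counts per library, was higher in shDnmt3a than in shScr (1.54, adjusted p = 5.15e-08). It was lower in shScr than in GFP (−1.30), and shDnmt3a against GFP did not pass (0.23, adjusted p = 0.133). On overexpression Cd74 was at −0.43 (adjusted p = 0.0098) and Ifi30 at 0.50 (adjusted p = 2.17e-08).

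Among class I-like proteins, Fcgrt, the neonatal Fc receptor, which also pairs with B2m, was lower in shDnmt3a than in shScr (−0.42, adjusted p = 7.43e-09) but higher than in GFP (0.14, adjusted p = 0.00129), with shScr above GFP by 0.57. It was higher on overexpression (0.34, adjusted p = 1.16e-08). Cd1d1, which presents lipids, was lower in shDnmt3a than in shScr (−0.39, adjusted p = 1.79e-04), higher in shScr than in GFP (0.38), and at −0.02 in shDnmt3a against GFP (adjusted p = 0.868). Hfe, a regulator of iron uptake, was higher in shDnmt3a than in both shScr (0.25, adjusted p = 0.0391) and GFP (0.69, adjusted p = 2.03e-06).

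Of the ligands that NK and T cells read beside class I, 2 of 4 tested were higher in shDnmt3a than in shScr, beside 23.3% of all features, and none was lower. Against GFP, shDnmt3a had 1 higher and 2 lower, beside 23.6% and 22.8% of all features. In shScr 2 of 4 were lower than in GFP, beside 22.8% of all features. Cd274, the ligand of PD-1, was higher against both controls (0.38 against shScr, adjusted p = 2.66e-06, and 0.27 against GFP, adjusted p = 1.41e-04). Ulbp1, a ligand of NKG2D with 20 to 99 counts per library, was higher against shScr (1.05, adjusted p = 8.72e-04), lower in shScr than in GFP (−0.79, adjusted p = 0.00481), and at 0.26 against GFP (adjusted p = 0.296). On overexpression none of the 4 passed.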
